A study of Mus musculus with 12 samples.

Results

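Passage of androgenetic haploid embryonic stem cells (ahESCs) was followed as the difference between a late and an early library of cytosine methylation. The members are the cytosines of chromosomes 1 to 19 with a value in both libraries, which came to 3452290 of the 7811806 autosomal positions listed over the whole series. The late group is wild type androgenetic haploid ESCs at late passage and the early group is the same kind of cells at early passage, with 1 library each. The labels name the genotype only as WT and the passage only as late or early, and give neither a passage number, nor a strain, nor how many lines were sampled, nor their ploidy at harvest.

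The series holds 12 mouse libraries of cytosine methylation read by RRBS, a bisulfite method limited to the CpG-rich fragments that the enzyme MspI cuts out. Diploid ESCs and parthenogenetic haploid ESCs (phESCs), both WT and both at late and early passage, give comparable passage pairs. The other 6 libraries are bimaternal (BM), bipaternal (BP) and WT embryos at E15.5 and brains of BM at E19.5, BM adults and WT adults, of which the BM and BP samples carry knockouts of differentially methylated regions. Each group has 1 library and the values are percentages without read depth, so the precision of a value is unknown, no difference was tested, and all comparisons describe these libraries.

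An androgenetic haploid genome comes from sperm alone. It therefore starts with paternal imprints and without maternal ones, where an imprint is methylation of a control region set in one germline and kept in the body. Methylation of a CpG is copied onto the new strand after replication by Dnmt1 with its partner Uhrf1, is laid down anew by Dnmt3a and Dnmt3b, and is oxidised by the Tet enzymes. Mouse ESCs are known for global methylation that shifts with culture.

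Maternally methylated imprint windows did not by themselves mark these cells as androgenetic. Over 18 windows that are methylated on the maternal copy, the mean was 4.74% (SD 1.81 over windows) in late ahESCs and 3.86% (SD 3.78) in early ahESCs. The phESCs, whose genome is maternal, were as low there, with 3.52% late and 2.43% early, and late diploid ESCs had 1.75%. Paternally methylated windows varied: Rasgrf1 had 33.4% in late and 53.8% in early ahESCs, while Nesp and Cdkn1c were under 7% in both. In the early libraries ahESCs stood above phESCs at the Meg3 promoter (48.2% and 1.72%), the H19 promoter (35.1% and 20.7%) and Rasgrf1 (53.8% and 38.9%). Nesp and Cdkn1c were at 5.40% and 5.92% in early ahESCs, and at 2.79% and 5.43% in early phESCs. In the late libraries the Meg3 promoter had 5.11% in ahESCs and 4.23% in phESCs, and the H19 promoter 17.1% and 1.43%. Among 8 pluripotency gene promoters with at least 6 placed CpGs, including Sox2, Klf4 and Esrrb, no mean was above 1.95% in the late or 1.28% in the early library. The markers Pou5f1, Nanog and Elf5 were not measured here.

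Methylation was lower at late passage across nearly all methylated sequence. Over all 3452290 shared cytosines, most of them little methylated, the mean was 7.16% late and 11.06% early, a difference of -3.89 points. The medians there were 1.04% late and 0.556% early, with 45.8% of cytosines higher and 38.4% lower in the late library. The deposited table mixes CpGs with other cytosines, so levels are given mainly for the 588841 shared cytosines that reached 20% in any of the other 10 libraries, a choice that does not use the pair itself. Where the sequence context was known, 98.6% of these were CpGs. Their mean was 33.6% in the late library and 60.3% in the early library, a difference of -26.7 percentage points. The late mean was thus 55.7% of the early mean. The median was 31.4% late and 72.6% early.

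The whole distribution of levels differed, and not only its mean. Cytosines at 80% or more made up 2.39% of this set in the late library, against 35.8% in the early library. Cytosines under 20% made up 33.4% in the late library and 17.7% in the early library. The level was lower in the late library at 88.4% of these cytosines and higher at 11.04%. In a bulk library a middle level cannot tell apart a mixture of methylated and unmethylated cells from partial methylation in each cell.

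**Figure D1:**
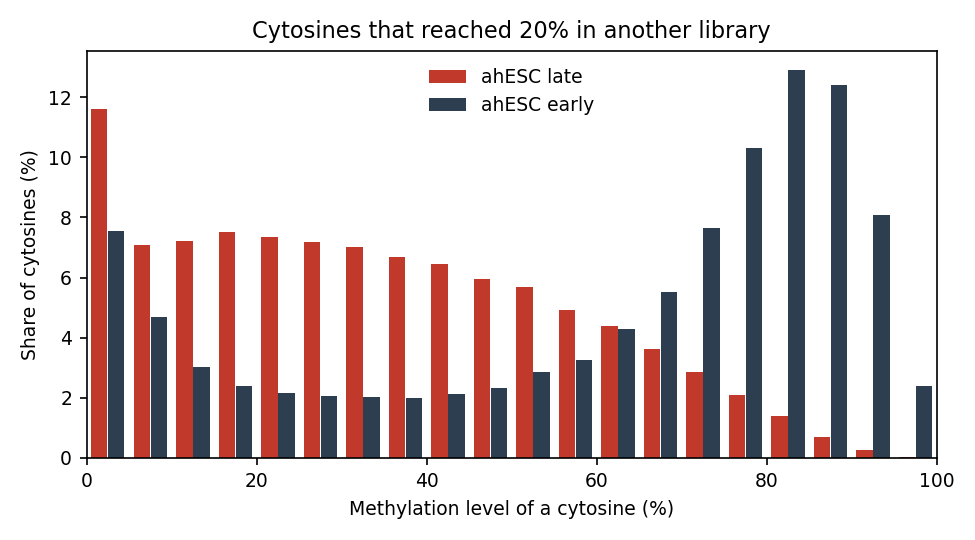
Share of the 588841 cytosines (y axis, percent) by methylation level in bins of 5 points (x axis, percent), with the late ahESC library in red and the early one in dark blue. The early library peaks above 80%, where it holds 35.8% of cytosines, while the late library has no upper peak and holds 2.39% there.

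The strands of a CpG gave separate readings of the same site. At 176965 CpGs read on both strands, the SD of the difference between strands was 12.5 points in the late and 9.55 points in the early library. The level was lower in the late library on both strands at 89.98% of them. These SDs describe scatter within a library and not between cultures.

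Low-level cytosines went the other way by a small amount. The 2863376 shared cytosines that never reached 20% outside the pair averaged 1.72% in the late and 0.921% in the early library. Cytosines outside CpG, where little methylation is found in most cells, averaged 0.988% late and 0.517% early. The difference was 0.80 points at the low-level cytosines and 0.47 points outside CpG.

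CCGG, the sequence cut by MspI, had values unlike other CpGs and touches several results below. Over all placed CCGG cytosines the median was 19.03% in the late and 8.36% in the early library, although the means were 25.1% and 27.4%. Placed CpGs outside CCGG that reached 20% elsewhere averaged 24.6% late and 50.7% early, a difference of -26.1 points, with 48.4% of the early mean kept. CCGG cytosines of the same class averaged 36.4% late and 55.2% early, a difference of -18.8 points. The late library also had values at 4124 positions of the unplaced sequence of chromosome Y, where the early library had 0. Late phESCs had 2348 there, the BM adult brain 2209 and the WT adult brain 7697, and the other 7 libraries beside early ahESCs had 0. Whatever sets these libraries apart technically and the passage cannot be told apart.

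Falls of at least 25 points covered most methylated 1 kb tiles, and rises were few. Of 72361 tiles with at least 3 such cytosines, 43756 were lower by at least 25 points in the late library (60.5%) and 47 were higher by as much (0.065%). Of the 62986 tiles at 25% or more in the early library, 69.5% were lower by that amount. With placed CpGs outside CCGG alone, 7469 of 11721 tiles were lower (63.7%) and 5 were higher (0.0427%). Without the condition that 20% was reached elsewhere, 7393 of 26568 such tiles were lower (27.8%) and 5 higher (0.0188%). The 47 higher tiles averaged 53.7% in the late and 19.01% in the early library, and 8 of them rested on at least 10 cytosines. In the diploid ESC libraries these 47 tiles averaged 31.8% late and 21.5% early.

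The share of methylation kept varied widely between tiles. Among 48456 tiles at 60% or more in the early library, the median tile had a late level equal to 55.0% of its early level. The 5th and 95th percentiles of that share were 28.0% and 80.9%. In 1557 tiles (3.21%) less than 25% of the early level was left, and in 2775 tiles (5.73%) at least 80% was left. Only 59 of the 48456 were not lower in the late library. The upstream and downstream parts of a tile, split so that each held equal numbers of cytosines, gave shares with a Pearson r of 0.70 and a Spearman rho of 0.69 over 22725 tiles. Both parts share the 2 libraries, their depth and their base composition.

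More methylation was kept where the WT embryo was most methylated, among placed CpGs outside CCGG. Tiles were binned by their level in the WT embryo, which the pair does not use. Over placed CpGs outside CCGG, late means were 35.9% of early means in tiles under 10% in the WT embryo, 40.1% in tiles at 40 to 60% and 54.1% in tiles at 90% or more. In the highest bin the means were 40.3% late and 74.6% early. In the lowest bin they were 5.04% late and 14.0% early.

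With all cytosines of the class, CCGG and those of unknown context included, the low end of this order turned round. The lowest bin then held 2827 tiles, against 753 of placed CpGs outside CCGG, so the sets also differ in the sequence covered. The share kept was 75.5% in tiles under 10% in the WT embryo, 53.5% in tiles at 60 to 80% and 58.7% in tiles at 90% or more. In the lowest bin the means were then 12.4% late and 16.4% early. The higher floor of CCGG in the late library stands beside this reversal, and its part in it was not tested. The diploid ESC pair, over the same tiles, kept 37.1% in the lowest and 47.7% in the highest bin with all cytosines of the class. Over placed CpGs outside CCGG it kept 25.8% and 42.7%.

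**Figure D2:**
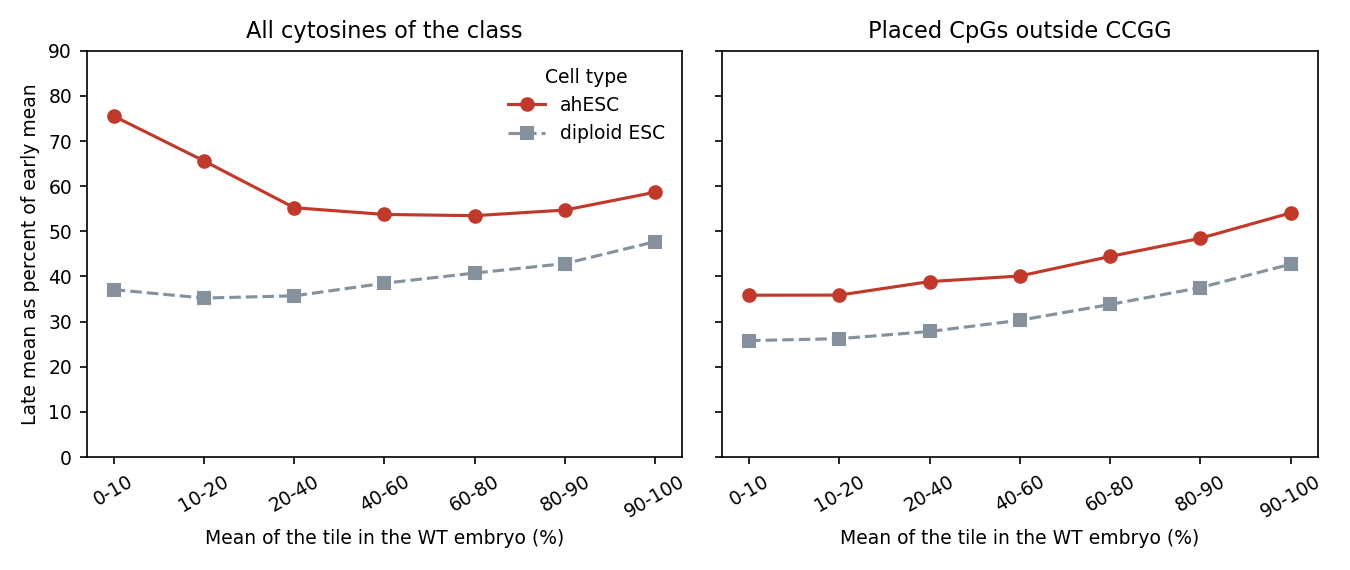
Late mean as a percent of the early mean (y axis) for 1 kb tiles binned by their mean in the WT embryo (x axis, percent), in ahESCs (red circles) and diploid ESCs (grey squares), over all cytosines of the class (left) and over placed CpGs outside CCGG (right). Over placed CpGs outside CCGG the ahESC share climbs with the embryo level and ends at 54.1%, above the diploid share of 42.7%. Over all cytosines of the class it starts at 75.5%.

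The difference between passages was of like size on all chromosomes. The share kept lay between 54.6% and 57.0% on all 19 autosomes, and the difference between -28.8 and -24.3 points. Over 250 windows of 10 Mb with at least 500 cytosines, the median share kept was 55.5% with an SD of 3.04 points. The lowest window, on chromosome 10 (mm9 chr10:100000001-110000000), had 31.6% late and 71.5% early, and kept 44.2%. The highest, at the start of chromosome 9, had 46.4% late and 72.1% early, and kept 64.4%.

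Dense and sparse sequence differed by less than tiles did. Among tiles at 60% or more in the WT embryo, placed CpGs outside CCGG kept 50.5% in the 49 tiles with the fewest listed positions (10 or fewer), 51.5% in tiles with 21 to 40, and 48.2% in the 1033 tiles with 81 or more. With CCGG and cytosines of unknown context included, the shares were 57.4% in the sparsest and 50.8% in the densest tiles. Close to gene starts, placed CpGs outside CCGG kept 40.3% within the first 500 bp of the gene, with 12.97% late and 32.2% early. In the 500 bp that begin 4500 bp downstream of the start they kept 51.1%, with 22.4% late and 43.8% early. With CCGG and cytosines of unknown context included, the order turned round. The shares were then 62.7% in the first 500 bp, 72.6% in the 500 bp upstream of the start and 57.4% from 4500 bp on.

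The bases beside a CpG went with the share kept. Over placed CpGs at 80% or more in the WT embryo, those in TCGA kept least, with 32.2% late and 70.6% early, or 45.6% kept. CpGs in ACGA kept 48.1%, those in GCGC 52.9% and those in CCGG 60.9%. In diploid ESCs ACGA sites kept least, at 37.1%, TCGA sites kept 38.02% and CCGG sites 45.05%. Among the sites outside CCGG the range in ahESCs was from 45.6% to 52.9%, narrower than the step to CCGG.

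Most promoters were unmethylated at both passages, and the methylated ones were lower at late passage. A promoter was taken as 1000 bp upstream to 500 bp downstream of a gene start. Of 11853 promoters with at least 6 placed CpGs outside CCGG, 11277 were under 10% in the early library, and 4 of these stood at 10% or more in the late library. Of 1763 promoters with at least 6 shared cytosines that reached 20% elsewhere, 580 were lower by at least 25 points (32.9%) and 0 were higher by as much. The median promoter had 14.2% late and 27.9% early. The largest difference upward was 17.8 points at Kat6b, a histone acetyltransferase gene, with 25.3% late and 7.59% early over 6 cytosines, against 7.30% late and 6.93% early in diploid ESCs.

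Promoters of different gene types started from different levels. Of 86 promoters of processed pseudogenes, 63 were lower by at least 25 points, with medians of 24.9% late and 74.6% early. Of 1377 promoters of protein-coding genes, 390 were lower, with medians of 12.96% late and 24.6% early. miRNA genes had 41 of 69 lower and long intergenic RNA genes 26 of 70. For every type the window was set by the annotated start, and whether transcription begins there was not tested.

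Among promoters with at least 10 such cytosines, the 10 largest falls were of 61.2 to 71.4 points. They were led by Rps19-ps5, a ribosomal protein pseudogene (mm9 chr15:37796841-37798341), with 9.56% late and 80.9% early. The long non-coding RNA gene 4933431M02Rik had 10.8% late and 81.9% early. Rn7s6, Tpt1-ps3 and the processed pseudogenes AC132351.1 and AC113104.2 were also among them, with late levels from 10.1% to 24.6% and early levels from 76.4% to 86.4%. Pseudogenes resemble their parent genes, the handling of reads with several matches is not given in the sources used here, and whether reads were shared was not tested. Tenm2, which encodes a cell adhesion protein of synapses, had 8.95% late and 72.6% early. Hspb3, a small heat shock protein gene of muscle, had 9.79% late and 72.5% early. The long non-coding RNA gene 1700018B24Rik had 10.7% late and 73.8% early, and Tex101, below, completed the set.

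Germline genes are a class of promoter that is methylated in body tissues and was partly so in early ahESCs. Of 38 listed germline genes, 20 had at least 6 shared cytosines, and 18 had at least 6 that reached 20% elsewhere. Ddx25 and Zpbp2 were outside the 18 and were unmethylated over placed CpGs outside CCGG. Ddx25 had 1.01% late and 0.463% early, and Zpbp2 1.02% late and 0.548% early. Of the 18, 13 stood at 25% or more in the early library. In the late library 6 of the 18 were lower by at least 25 points and 0 higher, a share close to the 32.9% over all promoters. Their median level was 12.98% late and 34.7% early, and their median difference was -21.9 points, beside -13.5 points over all 1763 promoters. The list was made with earlier results of these data known and gives no independent evidence.

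The promoters of Tex101, Asz1 and Fkbp6 are shown as examples of listed germline genes lower by at least 25 points. Over all 588841 cytosines that reached 20% elsewhere, 88.4% were lower in the late library. The promoters shown here were picked for their fall, so the separation at their CpGs is partly set by that choice. Each runs from 250 bases before to 50 after the start that RefSeq gives, which for Asz1 and Fkbp6 is not the start used for the promoter means, 5′ to 3′ on the gene's strand, from RefSeq (GRCm38.p6). Capitals mark the CpGs with a value in both ahESC libraries, and the positions given are where the sequence was placed on mm9. They are mm9 chr7:25457020-25457319 (minus strand), chr6:18059012-18059311 (minus strand) and chr5:135825734-135826033 (minus strand).
Tex101: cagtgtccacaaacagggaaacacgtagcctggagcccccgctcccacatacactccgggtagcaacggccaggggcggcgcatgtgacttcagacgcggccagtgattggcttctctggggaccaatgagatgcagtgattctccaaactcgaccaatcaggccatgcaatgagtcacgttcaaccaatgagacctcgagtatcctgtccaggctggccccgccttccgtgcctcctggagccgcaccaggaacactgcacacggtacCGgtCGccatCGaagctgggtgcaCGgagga
Asz1: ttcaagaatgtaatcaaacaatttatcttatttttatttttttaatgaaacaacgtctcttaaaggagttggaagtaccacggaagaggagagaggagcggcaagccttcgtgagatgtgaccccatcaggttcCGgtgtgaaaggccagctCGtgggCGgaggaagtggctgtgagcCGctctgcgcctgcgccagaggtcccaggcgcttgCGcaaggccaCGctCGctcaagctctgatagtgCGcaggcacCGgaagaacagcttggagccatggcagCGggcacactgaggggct
Fkbp6: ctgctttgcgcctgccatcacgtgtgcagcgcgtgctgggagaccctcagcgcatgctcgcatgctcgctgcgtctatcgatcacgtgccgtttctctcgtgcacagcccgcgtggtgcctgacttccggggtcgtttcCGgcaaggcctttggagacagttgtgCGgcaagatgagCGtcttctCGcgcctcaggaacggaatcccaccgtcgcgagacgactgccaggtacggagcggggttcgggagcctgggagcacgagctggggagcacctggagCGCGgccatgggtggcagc

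Tex101, a surface protein of male germ cells needed for sperm fertility, had 4 measured CpGs of 19 in this sequence. They stood at 27.5, 14.998, 13.6 and 21.2% in the late library, against 89.0, 94.1, 82.6 and 91.0% in the early library, in 5′ to 3′ order. No late value came near an early one. Over 18 cytosines of the whole 1500 bp promoter the means were 21.8% late and 83.0% early. Diploid ESCs had 36.9% late and 83.8% early at the same promoter.

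Asz1, which acts in the piRNA pathway that silences transposons in germ cells, had 10 measured CpGs of 17. The late values ran from 0.676% to 38.8% and the early ones from 46.8% to 73.2%, and all 10 were lower in the late library. The CpG at base 224 had 0.676% late and 65.7% early, and the same CpG in diploid ESCs had 0% late and 67.1% early. The highest late value, 38.8%, was that of a CCGG.

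Fkbp6, a co-chaperone of meiosis and of the piRNA pathway, had 6 measured CpGs of 32. They stood at 21.4, 5.78, 9.31, 10.2, 15.9 and 9.47% in the late library, against 62.4, 58.2, 53.0, 53.3, 63.9 and 60.9% in the early library. The libraries did not overlap at these CpGs. The first of them, at 21.4% late, is the CCGG.

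The other germline genes lower by at least 25 points were Tuba3a, Tuba3b and Slc25a31. Tuba3a and Tuba3b encode testis α-tubulins. They had 14.0% late and 56.1% early, and 16.05% late and 76.5% early, and as close paralogs they are uncertain, since shared reads were not tested. Slc25a31, the mitochondrial ADP/ATP carrier of germ cells, had 9.37% late and 35.6% early. Dpep3, a testis dipeptidase gene, was just outside at -24.9 points. It had the highest levels of the list, with 66.3% late and 91.3% early.

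The 11 others lay at intermediate or low levels. Dazl, an RNA-binding protein of germ cells, had 15.46% late and 36.1% early over 63 cytosines. Sycp3 and Sycp1 of the meiotic chromosome axis and synaptonemal complex had 17.5% late and 33.9% early, and 9.49% late and 19.04% early. The meiotic genes Hormad1 and Hormad2 had 17.4% late and 32.2% early, and 7.29% late and 14.2% early. Ddx4, an RNA helicase of germ cells, was low at both passages, with 6.86% late and 7.20% early. Tex14, of the bridges between germ cells, had 6.69% late and 4.02% early.

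**Figure D3:**
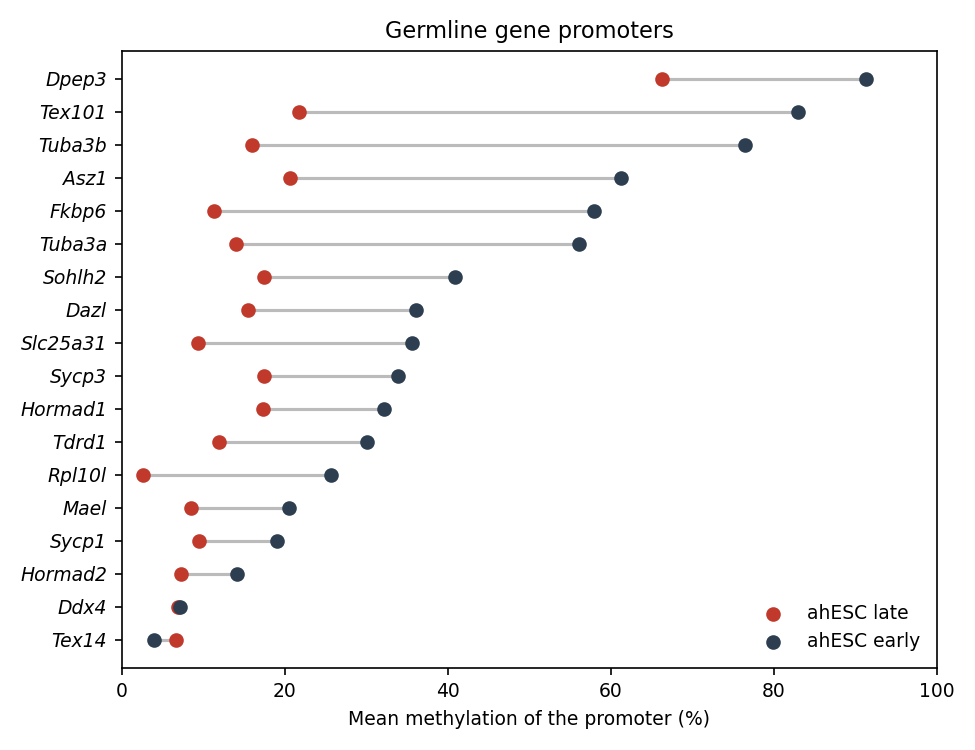
Mean methylation (x axis, percent) of the promoters of 18 germline genes (y axis), in the late (red) and early (dark blue) ahESC library, with a grey line joining each pair. The late value is left of the early value at all genes but Tex14, by up to 61.2 points at Tex101.

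Genes of the methylation machinery were unmethylated at their promoters, with 1 exception. At 14 of them with at least 6 placed CpGs outside CCGG, the median was 0.950% late and 0.488% early. Dnmt1 had 0.83% late and 0.51% early, and Uhrf1 0.69% late and 0.50% early. Tet1, which encodes an enzyme that oxidises 5-methylcytosine, was the exception. Its annotated start (mm9 chr10:62342262-62343762) had 24.99% late and 71.2% early over 12 cytosines, and diploid ESCs had 6.72% late and 64.7% early there.

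Genes of other lineages had few promoters methylated enough to be lower by 25 points. At 25% or more in the early library were 4 of 8 measured developmental regulators and 1 of 14 clustered protocadherins, so their counts cannot be read against the 32.9% over all promoters. Aqp4, the water channel of astrocytes, had 19.2% late and 74.1% early over 8 cytosines, and was the 1 measured neural gene. Of 8 measured developmental regulators, Hoxc10 was lower by at least 25 points, with 26.2% late and 56.9% early, and by medians 3 were. Hoxa6 had 22.1% late and 44.9% early, and Hoxa5 5.82% late and 1.74% early. Of 14 clustered protocadherins, neuronal adhesion genes chosen singly per cell, Pcdha8 was lower, with 5.73% late and 65.1% early. Pcdha3 had 3.36% late and 21.4% early. The fibroblast gene Twist2 had 12.98% late and 33.9% early, and the trophoblast gene Hand1 had 12.4% late and 12.5% early. These means cover only cytosines that reached 20% elsewhere. Over all placed CpGs outside CCGG, Hoxc10 had 1.77% late and 1.76% early, and Hoxa6 3.57% late and 6.99% early. Twist2 had 3.95% late and 9.97% early by that measure, whereas Pcdha8 had 3.01% late and 62.97% early. For the list of 2-cell genes no promoter had at least 6 cytosines that reached 20% elsewhere.

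The 10 promoters that differed least, among those with at least 10 cytosines and 60% or more in the early library, were lower by 2.04 to 21.4 points. Mir433, a miRNA gene of the imprinted Dlk1-Dio3 region, had 68.2% late and 89.0% early. Krt42, a keratin gene, had 54.3% late and 71.3% early. Prss42, a testis serine protease gene, had 45.6% late and 66.0% early. Cd27, a receptor gene of lymphocytes, had 43.1% late and 60.9% early. Mir26b, Rprl3, Rapgef3os1 and 4930594O21Rik had late levels from 39.5% to 54.9% and early levels from 60.8% to 75.2%.

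Tmem267, a transmembrane protein gene, differed least, and shares much of its promoter with 3110070M22Rik. Tmem267 (mm9 chr13:120275846-120277346) had 59.5% late and 61.6% early over 30 cytosines, and 3110070M22Rik had 53.0% late and 63.5% early over 32. Its sequence is shown because its late values split by position over a short distance. It lies at mm9 chr13:120277030-120277329 on the plus strand, from RefSeq (GRCm38.p6), with capitals as above.
Tmem267: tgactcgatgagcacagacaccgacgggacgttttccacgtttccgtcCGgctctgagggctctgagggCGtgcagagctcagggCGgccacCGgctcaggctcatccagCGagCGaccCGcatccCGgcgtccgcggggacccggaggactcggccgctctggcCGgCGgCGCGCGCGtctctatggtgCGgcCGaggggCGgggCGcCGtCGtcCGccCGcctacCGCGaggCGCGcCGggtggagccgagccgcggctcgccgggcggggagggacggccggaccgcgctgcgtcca

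The mean of Tmem267 hid a split between neighbouring CpGs. Of 50 CpGs 27 were measured, each on 1 strand, and 10 of these were lower in the late library. At bases 111, 115 and 120 the late values were 0.588, 2.35 and 1.76%, against 79.7, 77.9 and 78.4% in the early library. At bases 172, 176 and 178 the late values were 100, 100 and 100%, against 76.7, 74.9 and 72.5% early. The late diploid library had 3.15, 2.29 and 3.72% at the first 3 of these CpGs and no value at the others. From base 169 to base 237 every late value was a multiple of 10, among them 90, 80, 30, 70 and 40%. The depth behind the late values is not given, so whether few reads lie under this second block was not tested.

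**Figure D4:**
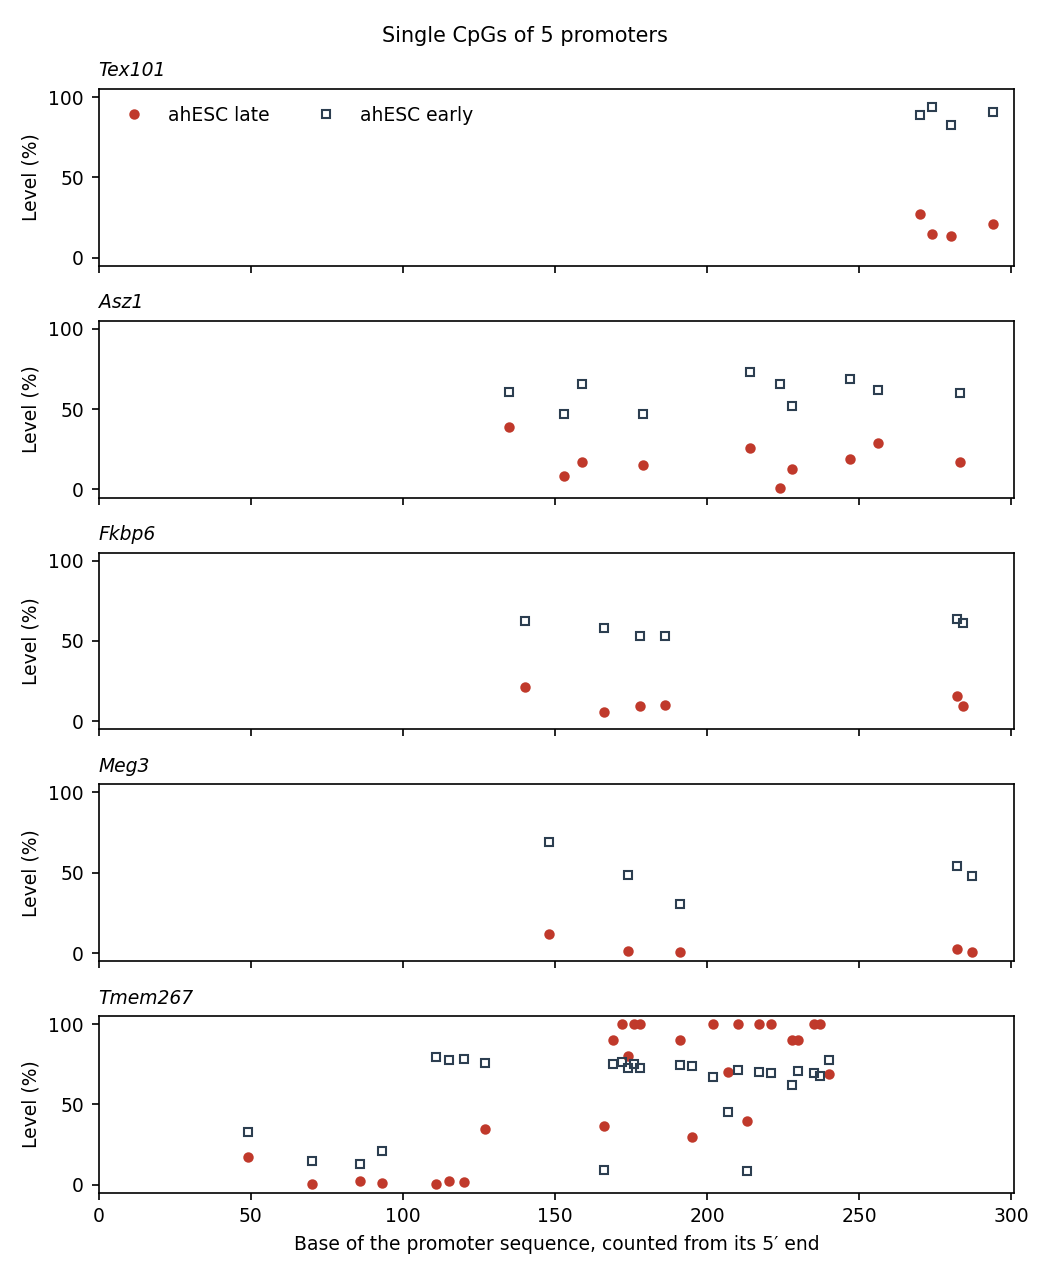
Methylation level (y axes, percent) of each measured CpG along the printed promoter sequences of Tex101, Asz1, Fkbp6, Meg3 and Tmem267 (x axis, base from the 5′ end), with late ahESCs as red circles and early ahESCs as open dark blue squares. The late values lie below the early ones at every measured CpG of the first 4 promoters, while at Tmem267 they lie near 0% at bases 111 to 120 and at 100% at bases 172, 176 and 178.

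Maternally methylated imprint windows were little methylated at either passage. All 18 measured windows were at 25 to 75% in the WT embryo, where 1 parental copy is methylated, and 0 of them were lower or higher by 25 points. Levels ran from 2.37% to 7.98% in late and from 1.02% to 14.8% in early ahESCs. Snrpn-Snurf, the control region of the Prader-Willi domain, had 5.98% late and 2.96% early (mm9 chr7:67149466-67150115, 16 cytosines). Kcnq1ot1, the promoter of a silencing RNA, had 3.02% late and 1.02% early. Plagl1, a zinc finger gene, had 3.61% late and 1.15% early.

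By means over all shared cytosines, 4 of the 18 were lower at late passage. Gnasxl-Nespas had 5.95% late and 14.8% early, Nnat 3.07% late and 9.998% early, Grb10 3.61% late and 5.05% early, and Gnas-1A 6.13% late and 6.53% early. The other 14 were higher in the late library, by at most 5.51 points at Slc38a4. The mean difference of 0.88 points had no stable sign. It was -0.10 without placed CCGG, with 11 of 18 windows higher at late passage, and -1.10 by medians, with 8 of 18 higher. In diploid ESCs the same windows averaged 1.75% late and 43.6% early, and 15 of 18 were lower by at least 25 points.

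Paternally methylated windows were lower in the late library where they were methylated. Rasgrf1, a guanine nucleotide exchange factor gene with a paternal imprint upstream, had 33.4% late and 53.8% early over 5 cytosines (mm9 chr9:89769450-89769530), a difference of -20.4 points that became -27.1 points by medians. The H19 promoter, of an imprinted non-coding RNA that opposes Igf2, had 17.1% late and 35.1% early over 10 cytosines. Diploid ESCs had 17.7% late and 66.5% early at Rasgrf1, and 14.1% late and 58.4% early at the H19 promoter. Too few shared cytosines lay in the germline control regions of H19-Igf2 and of Dlk1-Dio3. The first had 4, which averaged 7.14% late and 16.995% early, and the second had 1, at 25.9% late and 67.2% early. Both were under the minimum of 5 for a window, so neither was counted as measured. Nesp and Cdkn1c, which take on paternal methylation after the germline, were low at both passages, with 4.94% late and 5.40% early, and 6.52% late and 5.92% early.

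Meg3, a non-coding RNA expressed from the maternal copy in the Dlk1-Dio3 region, had the largest difference of the windows. Its promoter had 5.11% late and 48.2% early over 12 cytosines, a difference of -43.1 points. The BP embryo had 76.3% there, the BM embryo 67.6% and the BM E19.5 brain 50.7%. The WT embryo had 13.6%, below the 25 to 75% of the other measured windows. Its sequence is shown because its gap between passages was the widest among the measured windows. It lies at mm9 chr12:110778956-110779255 on the plus strand, from RefSeq (GRCm38.p6), with capitals as above.
Meg3: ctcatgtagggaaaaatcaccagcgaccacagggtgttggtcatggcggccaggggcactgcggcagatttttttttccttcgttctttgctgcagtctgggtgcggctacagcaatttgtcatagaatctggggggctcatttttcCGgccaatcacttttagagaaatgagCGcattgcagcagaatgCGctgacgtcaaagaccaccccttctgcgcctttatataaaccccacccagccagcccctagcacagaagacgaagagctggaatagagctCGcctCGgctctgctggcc

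At the 5 measured CpGs of 13 in this sequence, late values were 11.998, 1.27, 0.633, 2.44 and 0.500%, against 68.9, 48.6, 30.6, 54.3 and 48.0% early. The highest late value is that of the CCGG, and the other 4 lay between 0.500% and 2.44%. Diploid ESCs had 4.45 to 8.33% late and 53.7 to 58.6% early at these 5 CpGs.

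**Figure D5:**
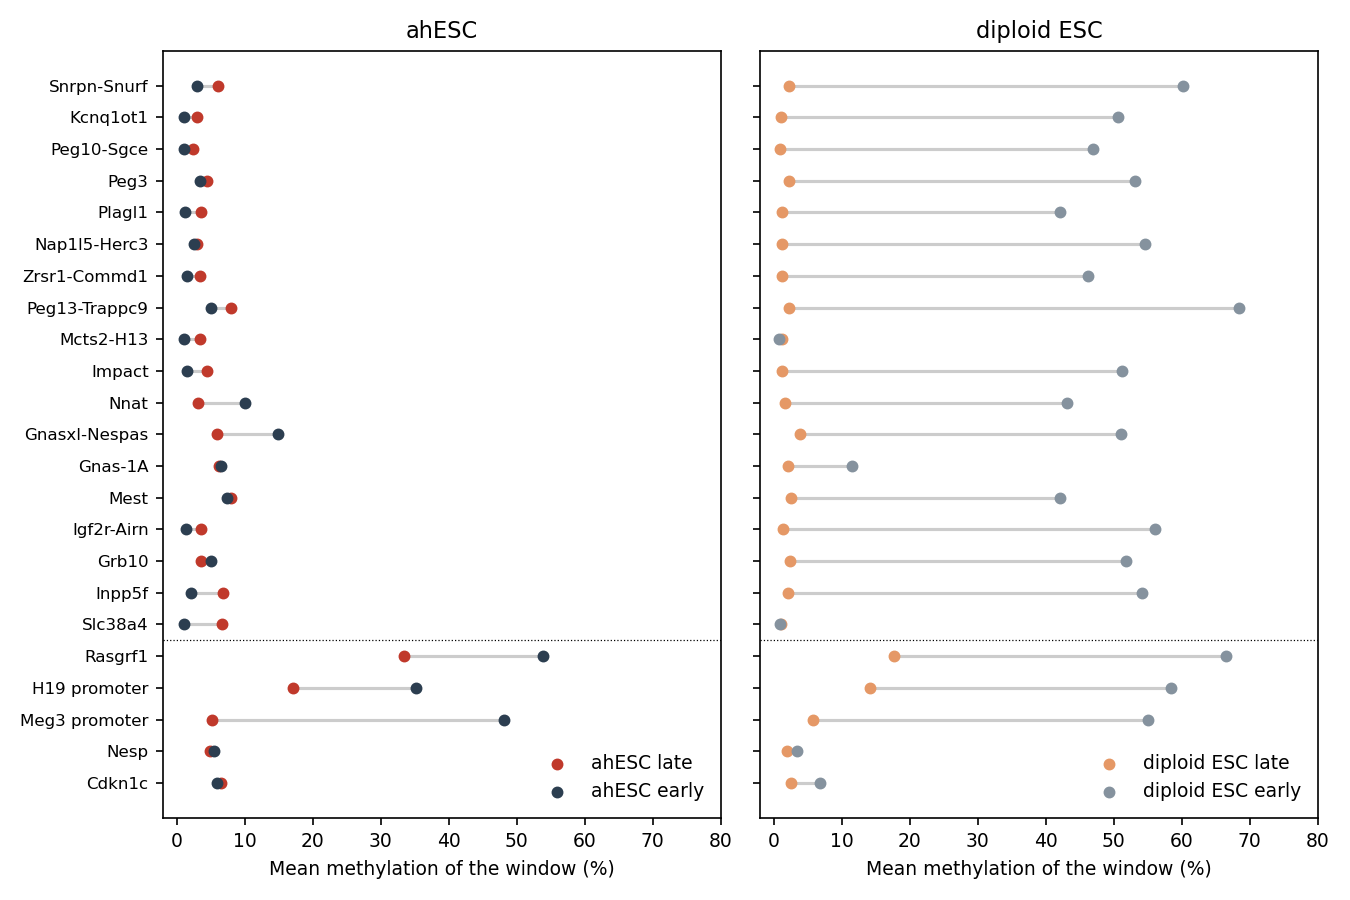
Mean methylation (x axes, percent) of 23 windows at imprinted genes (y axis), at late and early passage in ahESCs (left, red and dark blue) and diploid ESCs (right, orange and grey), with the 18 maternal windows above the dotted line and 5 windows listed as paternal below it, of which the Meg3 promoter was outside 25 to 75% in the WT embryo. In ahESCs all maternal windows lie at or under 14.8% at both passages, while Rasgrf1, the H19 promoter and the Meg3 promoter are lower at late passage.

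Beside diploid ESCs, the fall in ahESCs was smaller in size and lay at largely the same tiles. At 558041 cytosines measured in all 4 libraries, ahESCs had 34.0% late and 60.7% early, and diploid ESCs had 26.4% late and 62.2% early. The late mean was 56.0% of the early mean in ahESCs and 42.4% in diploid ESCs. Of 68726 tiles, 41833 were lower by 25 points in ahESCs (60.9%) and 54621 in diploid ESCs (79.5%). Higher by as much were 40 in ahESCs (0.0582%) and 22 in diploid ESCs (0.032%). The 40911 tiles lower in both were 97.8% of the ahESC tiles and 74.9% of the diploid tiles. With 1 library per group, the difference between the cell types could not be tested.

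Tiles also kept methylation in a like order in both cell types. Over 46605 tiles at 60% or more in both early libraries, the shares kept had a Pearson r of 0.69 and a Spearman rho of 0.69. Outside CCGG these were 0.73 and 0.73 over 6740 tiles. The pairs share no library, but share the base composition of each tile. Over all 46605 tiles, 5.74% kept at least 80% in ahESCs and 0.953% in diploid ESCs, and 2.94% kept less than 25% in ahESCs and 8.68% in diploid ESCs. Of 2673 tiles that kept at least 80% in ahESCs, 265 did so in diploid ESCs, or 9.91% of the ahESC list and 59.7% of the diploid list. Of 1372 tiles that kept less than 25% in ahESCs, 889 did so in diploid ESCs, or 64.8% of the ahESC list and 21.99% of the diploid list.

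Single promoters differed more than the genome-wide ratio, and those named next were chosen after their values were seen. Only promoters with at least 10 cytosines were ranked. The 8 of them where the fall in diploid ESCs most exceeded that in ahESCs were Tmem267, 3110070M22Rik, Snurf, Snrpn, Nap1l5, Zrsr1, Peg10 and Plagl1. The last 6 lie at maternal imprints. They stood at 1.02 to 3.65% in early ahESCs already, against 42.1 to 61.1% in early diploid ESCs. At 3110070M22Rik diploid ESCs had 3.21% late and 73.2% early. The late diploid library had no value at the measured CpGs from base 166 on of the printed Tmem267 sequence, which lies in both promoters. Its means at Tmem267 and 3110070M22Rik therefore cover other cytosines than the early diploid and ahESC means. In the other direction, C330024D21Rik had 3.88% late and 52.3% early in ahESCs, and 3.04% late and 15.51% early in diploid ESCs.

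Beside phESCs, ahESCs differed far more between passages. At 252503 cytosines measured in these 4 libraries, ahESCs had 27.9% late and 55.2% early, and phESCs had 26.4% late and 32.3% early. Of 31075 tiles, 19422 were lower by 25 points in ahESCs (62.5%) and 1072 in phESCs (3.45%). Higher by as much were 19 in ahESCs (0.0611%) and 73 in phESCs (0.235%). The late libraries of the 2 haploid types therefore lay close in level, and the early ones did not. The 768 tiles lower in both were 3.95% of the ahESC tiles and 71.6% of the phESC tiles.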

How the data were processed

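The authors deposited 1 table of methylation percentages from 0 to 100 per cytosine for 12 RRBS libraries, made with Trim Galore and Bismark 0.13.1 on mm9 per the submitters' processing notes. Values are percent without depth, missing ones are marked as such, and depth limits are unknown. Levels are plain means over cytosines in both ahESC libraries. No test was possible with 1 library per group. The members and gene lists were chosen with earlier results of these data known.

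The table gives no sequence. Exons (GENCODE M21) and RefSeq promoters (GRCm38.p6) were placed on mm9 by their pattern of listed CG and GC cytosines. Of 263225 blocks 39960 were placed, each with at least 8 exact matches, against 1 of 16648 tried at a false shift of 2017 bp. This gave the context of 31.7% of positions, starts of 18854 genes and 14984 of 31396 RefSeq promoters. Sequence beside a placed block was assumed to lie in the same order in mm9.

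Tiles of 1 kb needed 3 cytosines, promoters 6 and windows 5. A difference of 25 points counted as lower or higher. Text names listed genes past 25 points and, with at least 10 cytosines, the 10 largest falls and the 10 smallest differences from 60% or more. Tile calling was tested on simulated data. Alternatives were other levels, tile sizes, minimums, medians and CCGG left out. Python 3.11.15, NumPy and pandas were used.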

Additional observations from a re-analysis of the deposited data

Results flagged for a closer look

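The mean passage difference of the maternal imprint windows was 0.882 points in ahESCs and -41.8 points in diploid ESCs, opposite in sign, and the gap between them was not tested. The ahESC sign was not stable, at -0.10 points without placed CCGG and -1.10 points by medians.

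The promoter of Clcn4, a chloride channel gene, also moved in opposite directions. Its passage difference was -15.6 points in ahESCs, with 29.9% late and 45.5% early, whereas diploid ESCs had 48.4% late and 6.60% early. This difference was not tested.

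The late ahESC library had values at 4124 positions of the unplaced sequence of chromosome Y, which no comparison uses, against 0 in the early ahESC library. Late phESCs, the BM adult brain and the WT adult brain had values there too, at 2348, 2209 and 7697 positions. On chromosome Y itself late ahESCs had 1161 positions, against 22 in early ahESCs. Late phESCs had 654 there and early phESCs 97, and the BM adult brain had 890 and the BM embryo 51.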

How the results depend on the processing

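The lower level at late passage kept its direction in all alternatives run for the mean. The difference of -26.7 points became -29.8 points for cytosines that reached 40%, and -4.62 points over all placed CpGs outside CCGG, most of which are unmethylated in both libraries. Tiles lower by 25 points numbered 9248 with at least 10 cytosines (of 14710), 17106 at a difference of 40 points and 7393 over placed CpGs outside CCGG, and tiles higher numbered 8, 9 and 5. Medians gave 85 higher tiles. Promoters lower numbered 315 with at least 10 cytosines and 226 at 40 points. By median, 3 developmental regulators were lower.

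The small mean difference of the maternal windows reversed, to -1.10 points by medians and -0.10 points without placed CCGG. With tiles binned by the early diploid ESC library, the shares kept were 51.9, 50.9, 56.3 and 63.9% for bins at 40 to 60, 60 to 80, 80 to 90 and 90 to 100%. Over placed CpGs outside CCGG, an alternative chosen after seeing the data, they were 35.9, 35.9, 38.9, 40.1, 44.4, 48.5 and 54.1%, lowest to highest bin of the WT embryo. Positions shared by all 6 ESC libraries left 19251 ahESC and 23300 diploid ESC tiles lower. Another 25 values stayed within 1 point, or within 1.5 times for counts. Rasgrf1 and the H19 and Meg3 promoters moved by more under some alternatives without a change of direction.

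With 1 library per group, no replicate was left out, and neither culture nor library error is known. No paired analysis was possible because each group holds 1 library without a replicate number. Depth is unknown, placed sequence is mostly exons and promoters, and passage cannot be told apart from the differences between the libraries in CCGG level and in positions read.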

Other observations

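The X chromosome lay outside the autosomal comparison. Over 37166 shared cytosines of X that reached 20% elsewhere, the mean was 22.002% in late and 35.7% in early ahESCs, a difference of -13.7 points. At 96 shared mitochondrial cytosines it was 3.28% late and 1.31% early.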
